A study of Homo sapiens with 4 samples.

Results

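The 39 genes described here encode the kinases of the DNA damage checkpoint and proteins of 4 repair routes, and their transcripts were measured by RNA-seq in the naïve human embryonic stem cell (ESC) line Elf1. The genes are a list of symbols that were matched through GENCODE annotation to the 60564 Ensembl identifiers of the deposited count files. The list holds 5 checkpoint kinases, 14 genes of homologous recombination, 9 Fanconi genes, 3 mismatch repair genes and 8 end joining genes. ATM and CHEK2 are also named in the RNA-seq results of the study itself, so their direction here is not independent evidence. All 39 were found, and all 39 passed the filter on low counts that left 22555 genes for testing.

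A break through both strands of DNA is sensed by the MRE11-RAD50-NBN complex, which recruits and activates the kinase ATM, whereas single-stranded DNA at stalled replication forks activates ATR. These kinases phosphorylate CHEK2 and CHEK1, which slow the cell cycle while the lesion is repaired. Homologous recombination copies the lost sequence from the sister chromatid, the Fanconi proteins unhook crosslinks between strands, mismatch repair corrects replication errors, and end joining religates broken ends without a template. Human ESCs divide rapidly with a short G1 phase, and pluripotent cells are known for high levels of repair proteins.

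Per the labels, Elf1 cells in 2-D culture were attached to Matrigel-coated plates. The study's methods describe routine upkeep of the line on mouse feeder cells and a move to feeder-free Matrigel ahead of encapsulation. For 3-D culture, single Elf1 cells were encapsulated in self-assembling scaffolds of PEG-8-SH and PEG-8-Acr, a pair of polyethylene glycol polymers that crosslink to a hydrogel, and were grown for 21 days. Both cultures received the same medium with FGF2, LIF, the GSK3 inhibitor CHIR99021 and a MEK inhibitor, and the labels name no DNA damaging agent for either culture. No time in culture is given for 2-D. The study describes routine passaging of 2-D cultures, and slower growth without passaging in 3-D. Passaging, growth rate and matrix thus differed along with dimension, and cannot be told apart here. Each culture gave 2 libraries, which the study describes as independent biological replicates, all of 1 cell line. Library totals were 33833778 and 30114220 counts in 2-D and 21154409 and 18276147 in 3-D, so values of 3-D grown cells carry more counting error. Mitochondrial transcripts took 5.10% to 5.30% of the counts in 2-D and 8.33% to 8.50% in 3-D, and the part of this share or of the depth in any difference below was not tested apart from the alternatives stated. As these are bulk samples, fewer cells that express a gene and less RNA per cell cannot be told apart.

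The promoters of the genes that differed between the cultures are shown first, where a sequence was held. RefSeq windows of 300 bases, from 250 bases before to 50 bases after the annotated start, were matched for 34 of the 39 genes. FANCI, NBN, PRKDC, WRN and XRCC5 had no entry. On GRCh38.p14 the window of ATM is chr11:108222817-108223116 on the plus strand, that of CHEK2 is chr22:28741771-28742070 on the minus strand and that of RBBP8 is chr18:22933078-22933377 on the plus strand, inside the GENCODE gene, which begins at position 22798261. Capitals mark the letters ATTGG, which is the CCAAT box read from the other strand, and TTTGAA, which matches the cell cycle homology region (CHR) element.
ATM: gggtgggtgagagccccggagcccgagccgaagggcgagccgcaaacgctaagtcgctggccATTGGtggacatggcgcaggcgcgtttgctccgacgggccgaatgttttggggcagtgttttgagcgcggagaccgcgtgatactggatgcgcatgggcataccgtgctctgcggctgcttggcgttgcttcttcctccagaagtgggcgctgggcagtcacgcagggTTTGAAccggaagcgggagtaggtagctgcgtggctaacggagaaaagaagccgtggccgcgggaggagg
CHEK2: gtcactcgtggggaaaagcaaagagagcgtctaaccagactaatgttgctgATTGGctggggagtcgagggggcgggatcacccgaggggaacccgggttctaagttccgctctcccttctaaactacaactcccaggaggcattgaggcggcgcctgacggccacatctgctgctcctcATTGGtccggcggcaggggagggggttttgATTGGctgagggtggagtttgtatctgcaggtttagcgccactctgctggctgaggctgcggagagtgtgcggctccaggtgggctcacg
RBBP8: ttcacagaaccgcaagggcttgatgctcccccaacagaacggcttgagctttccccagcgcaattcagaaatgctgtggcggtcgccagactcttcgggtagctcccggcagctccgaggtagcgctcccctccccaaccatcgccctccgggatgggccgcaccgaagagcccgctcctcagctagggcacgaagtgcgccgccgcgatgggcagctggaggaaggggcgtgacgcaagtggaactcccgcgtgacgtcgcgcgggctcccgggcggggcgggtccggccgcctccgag
The window of ATM holds ATTGG at -188 and TTTGAA at -20, counted from the start site. That of CHEK2 holds ATTGG at -199, -70 and -40, and that of RBBP8 holds none of the letters searched.

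Letters that match E2F sites, through which cell cycle genes are regulated at the G1/S transition, were found in other members. E2F-like letters (TTTCCCGC, TTTGGCGC, TTTCGCGC or TTTGCCGC on either strand) occurred in 8 of the 34 windows (23.5%) and in 3.33% of the 27305 promoters of the table. The 8 genes are MSH3, MSH6, PMS2, FANCA, FANCC, FANCD2, XRCC2 and XRCC6. CCAAT on either strand occurred in 17 of 34 windows (50%) and in 35.7% of all promoters, and CHR-like letters (TTTGAA or TTCGAA) in 3 of 34 (8.82%) and in 16.6% of all. The median GC content of the windows was 65% for the members and 58.3% for all promoters. A match of letters is a description and does not show a bound site. The stretches below, with the E2F-like letters in capitals, come from 6 of the 8 genes, the 3 mismatch repair genes and, as examples, FANCD2, FANCA and XRCC2. They lie at chr2:47783138-47783165 (MSH6, plus strand), chr5:80654535-80654562 (MSH3, plus), chr7:6009132-6009159 (PMS2, minus), chr3:10026425-10026452 (FANCD2, plus), chr7:152676103-152676130 (XRCC2, minus) and chr16:89816802-89816829 (FANCA, minus).
MSH6: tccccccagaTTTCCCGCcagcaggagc
MSH3: cgcggtcaagTTTGGCGCgaaattgtgg
PMS2: gggaagtattTTTGCCGCcccgcccgga
FANCD2: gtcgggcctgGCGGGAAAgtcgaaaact
XRCC2: ggcgttggtgGCGGGAAAgttgagtctc
FANCA: ctacaccgcgGCGGCAAAgccaaacgca
The MSH3 stretch holds an overlapping match on the other strand, GCGCGAAA. The stretches of MSH6, FANCD2, XRCC2 and FANCA lie inside their GENCODE genes, and those of MSH3 and PMS2 lie outside. That of MSH6 is far from the outermost start of its gene, at position 47695530. None of the 8 genes with E2F-like letters was called, and their values are given with their groups.

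Differences of the 39 genes between the cultures were small. The median log2 fold change of 3-D over 2-D was -0.014, with a range from -0.21 (FANCF) to 0.18 (RBBP8), while all 22555 tested genes had a median of -0.00014 and 5th and 95th percentiles of -0.52 and 0.43. The absolute change was under 0.1 for 31 members. Standard errors of single members ran from 0.0292 to 0.134, and the 95% interval lay within ±0.2 for 26 members and within ±0.3 for 35. At an adjusted p below 0.05 by the quasi-likelihood test of edgeR (p-values adjusted by the Benjamini-Hochberg method over all tested genes), ATM, CHEK2 and FANCI were lower in 3-D grown cells and RBBP8 was higher. That is 7.69% of members lower and 2.56% higher, beside 3.36% and 4.54% of all tested genes. Both 2-D libraries lay above both 3-D libraries for 12 members (30.8%; 25.1% of all tested genes), both 3-D libraries lay above for 10 (25.6%; 25.4% of all), and the libraries overlapped for 17. At an unadjusted p below 0.05, 11 members (28.2%) were lower and 1 (2.56%) was higher, beside 10.2% and 11.1% of all tested genes.

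These calls depend on the test and on single libraries. Neither edgeR's likelihood ratio test nor DESeq2 called any member, with adjusted p-values of 0.0569 to 0.163 and 0.0856 to 0.195 for the 4 genes. Each gave 1 member higher and 4 lower at an unadjusted p below 0.05. In the first test 8.16% and 7.54% of the 22555 filtered genes were higher and lower. In DESeq2 the shares were 2.87% and 2.13%, but of 42231 genes without the low-count filter. The DESeq2 shares thus cannot be set directly beside the members, which all passed that filter. Without 2-D replicate 2 the quasi-likelihood test also called none of the 39 genes (adjusted p 0.119 to 0.180 for the 4), with 1 higher and 4 lower at an unadjusted p below 0.05, beside 7.5% and 6.67% of all genes. When only library size was used for scaling, 0 members were called higher and 11 lower, and of all genes 514 (2.28%) were higher and 1879 (8.33%) lower, with a median of -0.065. The direction of the 4 genes was the same in all 14 alternatives, which reuse the same libraries and so are not independent support.

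**Figure D1:**
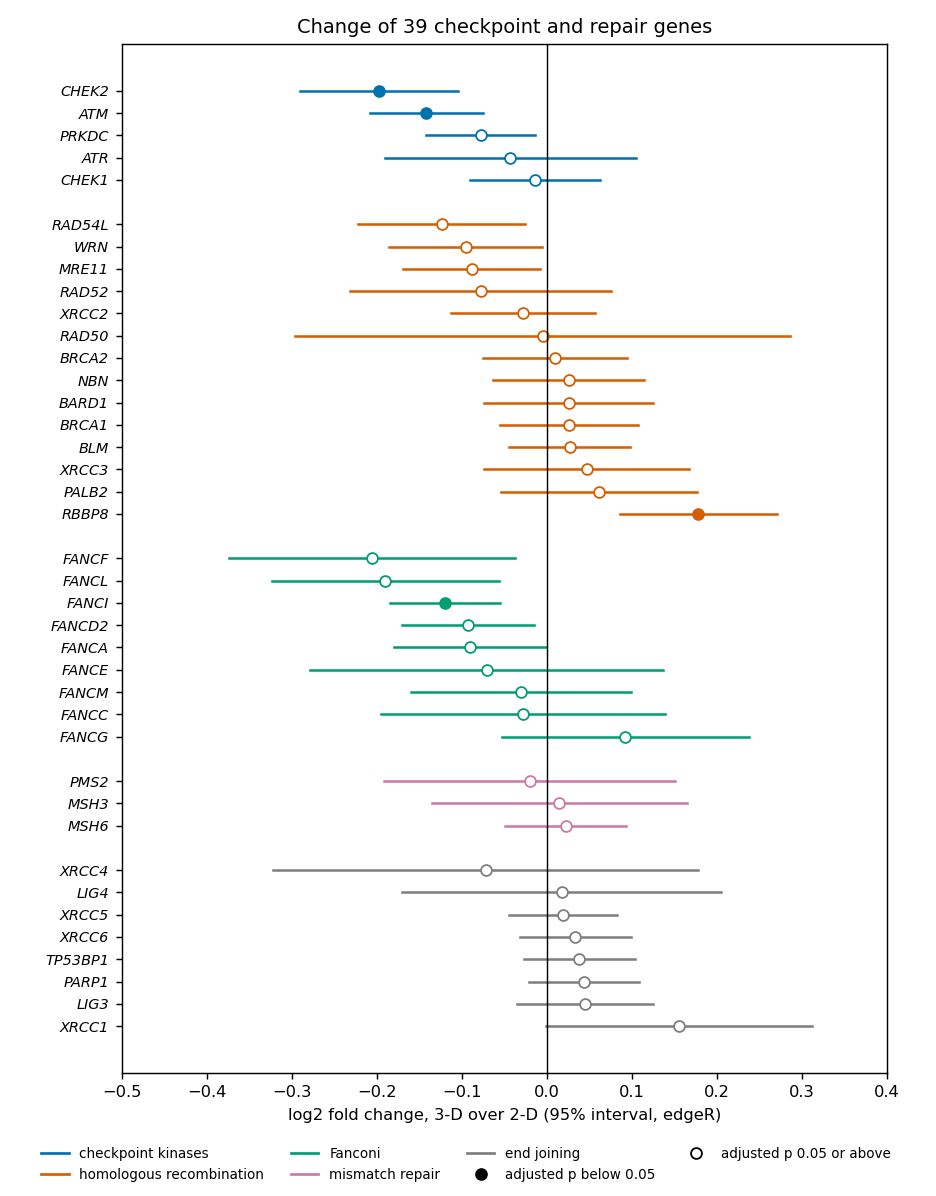
Log2 fold change between 3-D and 2-D grown cells for each of the 39 genes (x axis), grouped by role and ordered within each group (y axis). Points are edgeR estimates, bars are 95% intervals, and filled points have an adjusted p below 0.05. All 5 checkpoint kinases and 8 of 9 Fanconi genes lie to the left of 0, and 7 of 8 end joining genes lie to the right, where with library size only 7 of 8 would lie to the left.

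The 5 checkpoint kinases all had negative estimates, with a median of -0.078 on the log2 scale, and 2 of them fell. ATM (ENSG00000149311, hg38 chr11:108223044-108369102, plus strand, 63 exons in the canonical transcript) had 149 and 152 CPM in 2-D and 135 and 139 in 3-D, where CPM are counts scaled to a common library size with TMM factors. CHEK2 (ENSG00000183765, chr22:28687743-28742422, minus strand, 15 exons), the effector kinase downstream of ATM, had 56.7 and 56.8 CPM in 2-D and 49.7 and 49.3 in 3-D. In both genes the cultures did not overlap. ATM fell by 0.14 on the log2 scale (SE 0.0307, adjusted p = 0.0137) and CHEK2 fell by 0.20 (SE 0.0427, adjusted p = 0.0134), which leaves 90.7% and 87.2% of the 2-D mean. Without 2-D replicate 1, CHEK2 was not called (adjusted p = 0.0866). A copy of at least 95% identity exists for 37.6% of the CHEK2 transcript. Its 7 annotated pseudogenes held at most 1 count per library, which does not show how reads shared with the copies were treated.

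PRKDC, the catalytic kinase of DNA-PK and the most abundant kinase of the group, had 1220.5 and 1203 CPM in 2-D and 1156 and 1140.3 in 3-D. Its 2-D libraries lay above its 3-D libraries, and its log2 fold change of -0.078 (SE 0.0294) did not pass the test (adjusted p = 0.142). It passed in 5 of 14 alternatives, among them library size only (adjusted p = 0.00872) and the fit without 3-D replicate 1 (adjusted p = 0.0205). ATR, the kinase of the replication stress branch, had 38.5 and 37.8 CPM in 2-D and 34.4 and 39.8 in 3-D. The 3-D libraries of ATR enclosed the 2-D libraries, and its estimate was -0.043 (95% interval -0.19 to 0.10). CHEK1, the effector of ATR, had 97.4 and 103 CPM in 2-D and 99.8 and 98.1 in 3-D, an estimate of -0.014 (-0.09 to 0.06). The level of CHEK2 per kilobase of canonical transcript was 1.30 and 1.24 times that of CHEK1 in 2-D and 1.11 and 1.12 in 3-D. These ratios did not overlap, nor did those of PRKDC to XRCC5 and MRE11 to NBN. The same held for FANCL to FANCI (0.673 and 0.703 in 2-D, 0.656 and 0.654 in 3-D). The ratios of XRCC6 to XRCC5 were barely apart, at 1.152 and 1.132 in 2-D and 1.154 and 1.153 in 3-D. All other partner ratios computed overlapped, and no ratio was tested. Single genes were separated in this way in 25.4% (3-D higher) and 25.1% (2-D higher) of all tested genes, and no such share was computed for ratios. The ratio of ATR to ATM was 0.408 and 0.393 in 2-D and 0.404 and 0.453 in 3-D, which overlap. The sign of all 5 kinases was negative under every scaling tried, whereas CHEK1 turned to 0.023 without 2-D replicate 2 and ATR to 0.060 without 3-D replicate 1.

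**Figure D2:**
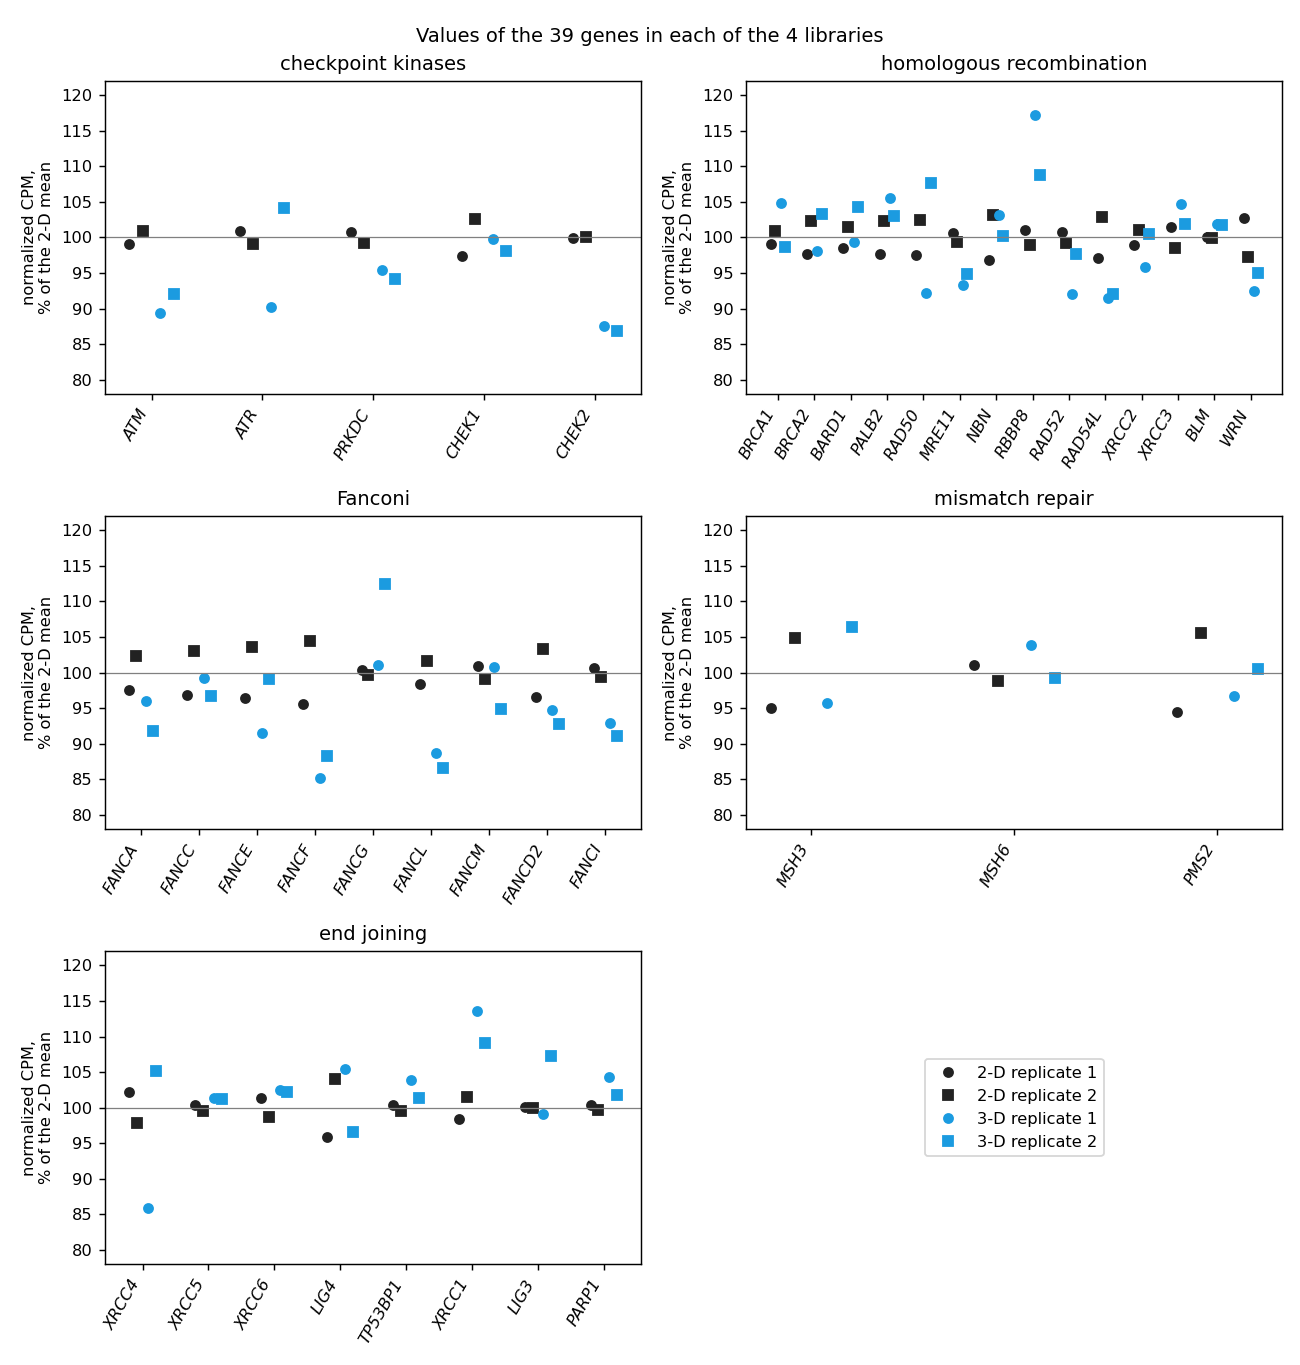
Normalized CPM of each gene in each of the 4 libraries, as a percentage of the gene's mean in 2-D (y axis), in 1 panel per role (genes on the x axis). Black symbols are 2-D and blue symbols 3-D libraries, with circles for replicate 1 and squares for replicate 2. ATM, CHEK2 and FANCI have both 3-D libraries below both 2-D libraries, RBBP8 has both above, and ATR, RAD50, MSH3 and XRCC4 have replicates that lie far apart.

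Of the 14 homologous recombination genes, RBBP8 rose and no other passed the test. RBBP8 (ENSG00000101773, chr18:22798261-23026488, plus strand, 19 exons) encodes CtIP, which starts the resection of broken ends and so commits a break to recombination. It had 63.6 and 62.2 CPM in 2-D and 73.8 and 68.5 in 3-D. Both 3-D libraries lay above the 2-D libraries, and the log2 fold change was 0.18 (SE 0.0425, adjusted p = 0.0222), or 113% of the 2-D mean. RBBP8 was not called without 3-D replicate 1 (adjusted p = 0.119), with library size only (adjusted p = 0.111) or with the 2-D libraries thinned to the depth of 3-D (adjusted p = 0.0617).

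The break sensors around RBBP8 did not pass the test. MRE11, the nuclease of the sensor complex, had 68.6 and 67.8 CPM in 2-D and 63.6 and 64.7 in 3-D, with both 3-D libraries lower (-0.088, 95% interval -0.17 to -0.0079, adjusted p = 0.187). NBN, which ties the complex to ATM, had 71.1 and 75.9 CPM in 2-D and 75.9 and 73.7 in 3-D, which overlap (0.026, -0.06 to 0.11). RAD50, the ATPase of the complex, was the lowest of all 39 genes at 5.26 and 5.52 CPM in 2-D and 4.96 and 5.80 in 3-D. Its value is uncertain, since 76.9% of its annotated exon bases are shared with another gene model on the same strand that holds 0 counts in each library, and how the counting treated shared bases is not stated. Per kilobase, RAD50 stood at 0.0366 to 0.0440 times NBN in the 4 libraries. MRE11 stood at 0.651 and 0.603 times NBN in 2-D and 0.567 and 0.593 in 3-D. Because of the shared exon bases, the low count of RAD50 is not read here as a low level.

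BRCA1, BRCA2 and their partners did not pass the test either. BRCA1, which acts at resection and at loading of the recombinase, had 82.5 and 83.9 CPM in 2-D and 87.2 and 82.1 in 3-D (0.026, 95% interval -0.06 to 0.11). Its partner BARD1 had 51.5 and 53.1 CPM in 2-D and 52.0 and 54.5 in 3-D (0.026, -0.07 to 0.13). BRCA2, which loads the recombinase on single-stranded DNA, had 80.1 and 83.9 CPM in 2-D and 80.4 and 84.7 in 3-D (0.0092, -0.08 to 0.09), and PALB2, which bridges BRCA1 and BRCA2, had 39.9 and 41.8 in 2-D and 43.2 and 42.1 in 3-D (0.062, -0.05 to 0.18). The libraries overlapped for BRCA1, BARD1 and BRCA2, while both 3-D libraries of PALB2 lay above the 2-D libraries by less than the interval can resolve.

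Genes that act later in recombination had estimates of both signs, and none passed the test. RAD54L, a motor protein that promotes strand exchange, had 55.5 and 58.9 CPM in 2-D and 52.3 and 52.7 in 3-D (-0.12, 95% interval -0.22 to -0.03, adjusted p = 0.129). RAD52, an annealing protein, had 22.6 and 22.3 CPM in 2-D and 20.7 and 21.9 in 3-D (-0.078, -0.23 to 0.08). WRN, a RecQ helicase, had 67.1 and 63.6 CPM in 2-D and 60.4 and 62.1 in 3-D (-0.095, -0.19 to -0.0050, adjusted p = 0.207). All 3 had both 3-D libraries below both 2-D libraries. BLM, the RecQ helicase that dissolves recombination intermediates, had 85.1 and 84.9 CPM in 2-D and 86.7 and 86.6 in 3-D (0.027, -0.04 to 0.10). The recombinase paralogs XRCC2 (-0.028, -0.11 to 0.06) and XRCC3 (0.047, -0.07 to 0.17) stood between 66.1 and 69.7 CPM and between 36.7 and 39 CPM over the 4 libraries. XRCC3 shares 76.7% of its exon bases with KLC1 on the opposite strand, and since strand use in the counting is not stated, reads of this pair cannot be told apart. In all, 8 of the 14 estimates were positive and 6 negative (median 0.017), and with library size only 1 was positive and 13 negative.

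Of the 9 Fanconi genes, 8 had negative estimates and FANCI fell. FANCI (ENSG00000140525, chr15:89243945-89317261, plus strand, 38 exons) encodes a subunit of the clamp that is ubiquitinated on damaged DNA. It had 141 and 139 CPM in 2-D and 130 and 127 in 3-D, and the cultures did not overlap. FANCI fell by 0.12 on the log2 scale (SE 0.0297, adjusted p = 0.0271), to 92.0% of the 2-D mean, but was not called without 2-D replicate 1 (adjusted p = 0.239) or with the 2-D libraries thinned (adjusted p = 0.0698). FANCD2, the other subunit of the clamp, had 126 and 134 CPM in 2-D and 123 and 120.4 in 3-D (-0.093, 95% interval -0.17 to -0.015, adjusted p = 0.150). The ratio of FANCD2 to FANCI per kilobase was 0.829 and 0.897 in 2-D and 0.879 in each 3-D library, so the 2-D libraries enclosed the 3-D ratio. An alternate contig holds a copy of 35.7% of the FANCD2 transcript.

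FANCL, the ubiquitin ligase of the Fanconi core complex that modifies the clamp, had 33.2 and 34.2 CPM in 2-D and 29.9 and 29.2 in 3-D. Its estimate of -0.19 (SE 0.0614) did not pass the test (adjusted p = 0.0844). FANCF, an adaptor of the core complex encoded in 1 exon, had 20 and 21.8 CPM in 2-D and 17.8 and 18.5 in 3-D (-0.21, SE 0.0774, adjusted p = 0.139), the most negative estimate of the 39 genes. FANCA, a scaffold of the core complex, had 67.0 and 70.3 CPM in 2-D and 65.9 and 63.0 in 3-D (-0.090, -0.18 to -0.00086, adjusted p = 0.229). In these 3 genes both 2-D libraries lay above both 3-D libraries. The core complex genes FANCC (17.5 to 18.7 CPM; -0.028) and FANCE (10.4 to 11.8 CPM; -0.071) and the anchor gene FANCM (34 to 36.1 CPM; -0.031) had overlapping libraries. FANCG, another core subunit, had 31.4 and 31.3 CPM in 2-D and 31.7 and 35.3 in 3-D, the only positive estimate of the group (0.092, 95% interval -0.05 to 0.24). Negative estimates numbered 8 of 9 under every scaling tried, and 7 of 9 without 2-D replicate 2 and without 3-D replicate 2.

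The libraries of the 2 cultures overlapped for all 3 mismatch repair genes, and none had an unadjusted p below 0.05. MSH6, the partner subunit that recognizes single mismatches, had 392 and 383 CPM in 2-D and 403 and 385 in 3-D (0.022, 95% interval -0.05 to 0.09). MSH3, the partner subunit for larger loops, had 35.4 and 39.1 CPM in 2-D and 35.7 and 39.6 in 3-D (0.015, -0.14 to 0.16). Per kilobase, MSH3 stood at 0.0850 to 0.0988 times MSH6 over the 4 libraries. PMS2, a nuclease subunit, had 19.4 and 21.7 CPM in 2-D and 19.9 and 20.6 in 3-D (-0.020, -0.19 to 0.15). The counts of PMS2 were 668 in each 2-D library and 408 and 370 in 3-D, while its 15 annotated pseudogenes summed to 1248, 1157, 904 and 771, and 92.9% of its canonical transcript had a copy of at least 95% identity elsewhere in hg38, so its value is uncertain.

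Of the 8 end joining genes, 7 had positive estimates and none had an unadjusted p below 0.05, and with library size only 7 of the 8 were negative. XRCC5 and XRCC6 encode Ku80 and Ku70, the ring that holds broken ends, and were among the most abundant of the 39 genes per kilobase. XRCC5 had 661 and 655 CPM in 2-D and 667 and 666 in 3-D (0.019, 95% interval -0.04 to 0.08), and XRCC6 had 478 and 466 in 2-D and 483 and 482 in 3-D (0.033, -0.03 to 0.10). The ratio of XRCC6 to XRCC5 per kilobase was between 1.13 and 1.15 in all 4 libraries. PRKDC, whose product binds this ring, stood at 0.464 and 0.461 times XRCC5 in 2-D and at 0.435 and 0.430 times in 3-D, without overlap. A copy covers 97.8% of the XRCC6 transcript. Its 5 annotated pseudogenes held 10 to 34 counts per library, which does not show how reads shared with the copy were treated.

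XRCC4 and LIG4, the pair that seals the ends, were low, with 7.83 to 9.59 CPM for XRCC4 (-0.072, -0.32 to 0.18) and 14.7 to 16.2 CPM for LIG4 (0.017, -0.17 to 0.20). TP53BP1, which shields ends from resection, had 174 and 173 CPM in 2-D and 180.1 and 176 in 3-D (0.038, -0.03 to 0.10). XRCC1, LIG3 and PARP1 serve single-strand break repair and the alternative end joining route. XRCC1, the scaffold, had 18.9 and 19.5 CPM in 2-D and 21.8 and 21.0 in 3-D, an estimate of 0.16 (95% interval -0.00090 to 0.31, adjusted p = 0.238) with both 3-D libraries higher. Its ligase partner LIG3 had 165 CPM in each 2-D library and 163 and 177 in 3-D (0.045, -0.04 to 0.13). LIG3 was called only without 3-D replicate 1 (0.10, adjusted p = 0.0170). PARP1, the sensor of nicks, had 623 and 619 CPM in 2-D and 648 and 632 in 3-D (0.044, -0.02 to 0.11). TP53BP1 and LIG3 share 28.8% and 29.1% of their exon bases with TUBGCP4 and RFFL on the opposite strand.

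**Figure D3:**
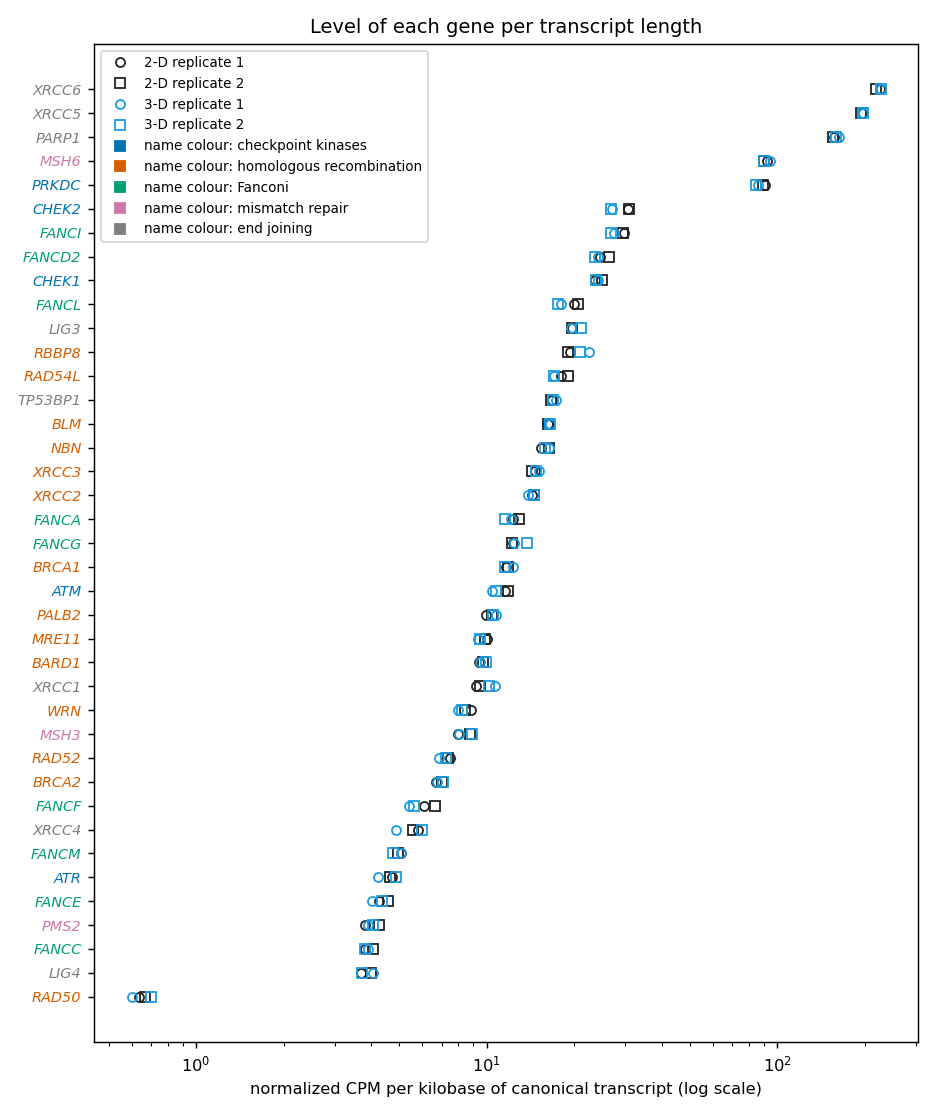
Level of each gene in each library, as normalized CPM per kilobase of the canonical transcript (x axis, log scale), with genes ordered by their 2-D level (y axis, names coloured by role). The levels run from 0.651 for RAD50 to 222 for XRCC6 in 2-D, and the 4 libraries of a gene nearly coincide on this scale.

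Levels between the genes differed far more than levels between the cultures. Per kilobase of canonical transcript, the 2-D means were 222 CPM for XRCC6, 195 for XRCC5, 156 for PARP1, 90.9 for MSH6 and 90.0 for PRKDC, and the next gene, CHEK2, was at 30.8. Before division by length, PRKDC, XRCC5, PARP1 and XRCC6 held 54.6% of the counts of the 39 genes. The lowest genes beside RAD50 were LIG4 (3.85), FANCC (3.94), PMS2 (4.03) and FANCE (4.42). Across the 39 genes, the log2 fold change showed little relation to transcript length (Pearson's r 0.0069, Spearman's rho -0.077) or to GC content (r 0.176, rho 0.176), where genes are not independent replicates and share the 4 libraries.

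Other genes of the checkpoint and repair pathways numbered 131, of which 128 were tested. In 3-D grown cells 6 were higher (4.69%) and 10 lower (7.81%), beside 4.54% and 3.36% of all tested genes, and their median was -0.010. All 4 called among the 31 other recombination genes were lower, namely the resection nuclease DNA2 (-0.25, adjusted p = 0.00166), the BRCA1-A complex member BABAM1 (-0.41, adjusted p = 0.00510) and the subunits RPA1 (-0.14, adjusted p = 0.0184) and RPA3 (-0.35, adjusted p = 0.00559) of the single-strand binding protein RPA. DNA2 had 89.1 and 95.05 CPM in 2-D and 77.1 and 77.3 in 3-D, and RPA3 had 31.1 and 29.8 in 2-D and 23.6 and 24.1 in 3-D. DNA2, BABAM1, RPA3 and, among the genes that rose, ERCC1 were called in all 14 alternatives, which was true of none of the 39 genes. The other genes that fell were RAD9A of the checkpoint clamp (-0.30, adjusted p = 0.0359), GTF2H3 of transcription factor TFIIH (-0.23, adjusted p = 0.0126), the fork remodeler HLTF (-0.17, adjusted p = 0.0114), the bypass polymerase gene POLI (-0.24, adjusted p = 0.0411) and 2 further genes. Several of these calls turned on 1 library. Without 2-D replicate 2, RAD9A (adjusted p = 0.227), RPA1 (0.222), HLTF (0.164), POLI (0.155) and GTF2H3 (0.0644) were not called. POLI was called in 7 of the 14 alternatives and was lost as well without 2-D replicate 1 (adjusted p = 0.130) and without 3-D replicate 1 (0.121). Without 2-D replicate 1, HLTF (adjusted p = 0.0571) and GTF2H3 (0.0797) were also lost, and RAD9A without 3-D replicate 2 (0.0700).

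The 6 that rose were ERCC1, APEX1, XAB2, CLSPN, MDC1 and RAD17. ERCC1, a subunit of the nuclease that cuts beside bulky lesions, had 58.2 and 54.7 CPM in 2-D and 69.2 and 66.7 in 3-D (0.27, adjusted p = 0.00255). APEX1, the endonuclease of base excision repair, rose by 0.14 (adjusted p = 0.0228), XAB2 of transcription-coupled repair by 0.16 (adjusted p = 0.0399), and CLSPN, the adaptor between ATR and CHEK1, by 0.12 (adjusted p = 0.0297). XAB2 was called in 5 of the 14 alternatives, CLSPN in 7 and APEX1 in 10. None of these 3 was called without 2-D replicate 1 (adjusted p = 0.187, 0.165 and 0.184) or without 2-D replicate 2 (adjusted p = 0.278, 0.275 and 0.144), nor was XAB2 without 3-D replicate 2 (adjusted p = 0.113). RAD17, the loader of the checkpoint clamp, had 2.70 and 2.21 CPM in 2-D and 12.4 and 4.96 in 3-D (1.84, adjusted p = 0.00339), and 1.01 without 3-D replicate 1. MDC1, an adaptor at breaks, had 3.54 and 4.09 CPM in 2-D and 7.49 and 5.97 in 3-D (0.83, adjusted p = 0.00500). The canonical transcripts of RAD17 and MDC1 are wholly copied on alternate contigs of hg38, so their low counts are uncertain. BABAM1, ERCC1 and HLTF share 32.9%, 28.6% and 27.4% of their exon bases with other gene models.

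Genes that begin back to back with a repair gene were set beside it. Starts here are the outermost annotated ends of the GENCODE genes. These can lie far from the RefSeq start used for the promoter windows, so a shared promoter was not shown. Within 1000 bases of the start of a member, on the opposite strand, 18 tested protein-coding genes were found, of which 1 was called higher and 1 lower. NPAT, which begins 406 bases from ATM, had an estimate of -0.042 (adjusted p = 0.636), and HSCB, 383 bases from CHEK2, one of -0.067 (adjusted p = 0.823). MCM4, which begins 7 bases from PRKDC, had 390.3 and 387 CPM in 2-D and 409 and 431 in 3-D (0.11, adjusted p = 0.0631), with the sign opposite to PRKDC. The called neighbours were TMEM167A beside XRCC4 (-0.16, adjusted p = 0.00597) and MAP1A beside TP53BP1 (0.26, adjusted p = 0.0300), whose partners did not pass the test. Without 2-D replicate 1 neither was called (adjusted p = 0.0841 and 0.280). TMEM167A was called in the 13 other alternatives, while MAP1A was not called with the likelihood ratio test (adjusted p = 0.0859), DESeq2 (0.117), library size only (0.0876) or offsets for length and GC content (0.133). The difference between a gene and its neighbour was not tested.

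**Figure D4:**
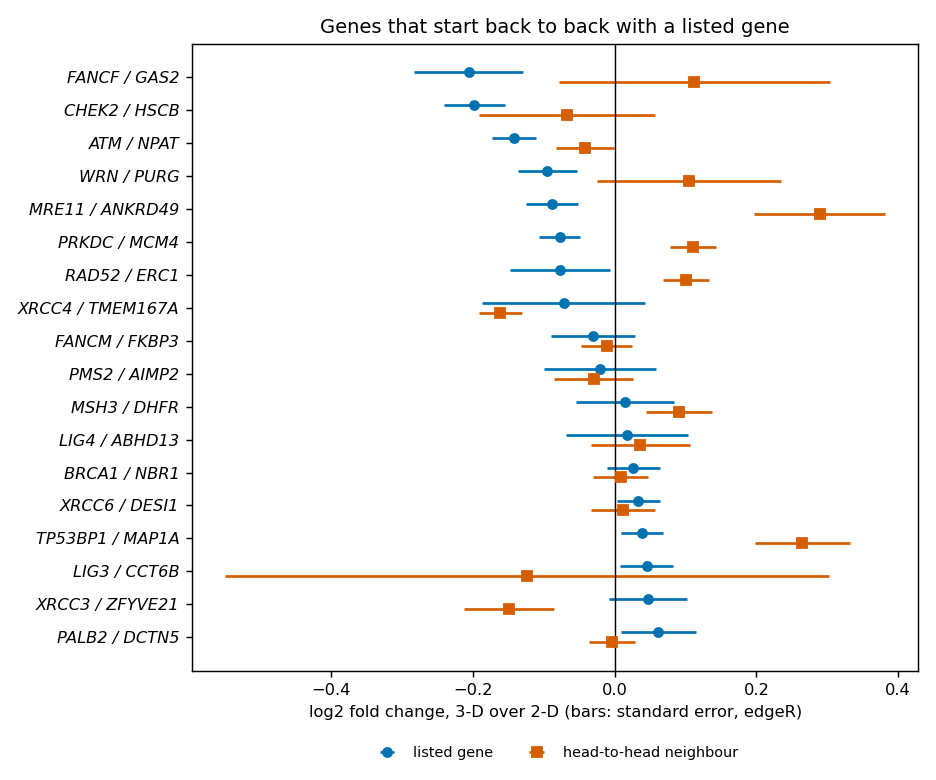
Log2 fold change of 3-D over 2-D (x axis) for 18 repair genes and the protein-coding gene that begins back to back with each (pairs on the y axis). Blue circles are the repair genes, orange squares their neighbours, and bars are standard errors from edgeR. The estimates differ in sign within 8 of the 18 pairs, among them PRKDC and MCM4, and share it within 10.

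The labelled cell type was checked by its markers. The 8 core pluripotency genes, POU5F1 among them at 116, 117, 109 and 132 CPM, summed to 4242 to 4271 CPM in 2-D and 4231 to 4341 in 3-D, and none was called. Of 9 naïve pluripotency markers, 8 were tested and KLF5 was called higher (46.9 and 48.0 CPM in 2-D, 56.2 and 57.2 in 3-D, adjusted p = 0.00336), and their sum was 109.9 and 113 CPM in 2-D and 123 and 119.8 in 3-D. KLF17, at 0.465 to 1.07 CPM, ARGFX, at 0.348 to 0.446, and DPPA5, at 0 to 0.130, were near 0 in all 4 libraries. TFCP2L1 stood at 22.1 to 23.8 CPM, DNMT3L at 14.6 to 17.9, KLF4 at 9.26 to 10.4, SUSD2 at 6.36 to 8.42 and DPPA3 at 5.75 to 7.43. Of the 8 tested, 5 had positive estimates. The 3 negative ones were TFCP2L1 (-0.055), DPPA3 (-0.072) and DNMT3L (-0.064). Proliferation genes, with which many repair genes vary, summed to 3716 and 3720.3 CPM in 2-D and 3827 and 3818 in 3-D. Of these 22 genes, 3 were called higher and 2 lower, beside 4.54% and 3.36% of all tested genes. MKI67 was among the higher genes, at 428 and 418 CPM in 2-D and 521 and 498 in 3-D (0.27, adjusted p = 3.63e-04). PLK1 (0.25, adjusted p = 7.46e-04) and MCM5 (0.14, adjusted p = 0.0427) were the others. The lower genes were CDK1 (-0.21, adjusted p = 0.00116) and TYMS (-0.11, adjusted p = 0.0344). Of the 22 estimates, 12 were positive and 10 negative, with a median of 0.0098. Of the fibroblast markers, 8 of 10 were tested, and 4 were called higher and 0 lower, beside the same shares of all genes. The 4 were COL1A1 (0.29), COL3A1 (0.73), THY1 (0.22) and POSTN (0.65), while COL1A2, the most abundant, had -0.037. The sum of the 10 markers was 539 to 547 CPM in 2-D and 559 to 609 in 3-D. Mesoderm markers summed to 67.4 to 67.7 CPM in 2-D and 72.01 to 72.9 in 3-D, mostly TBXT (21.1 to 25.4 CPM) and MIXL1 (31.9 to 34.9 CPM), endoderm markers to 8.99 to 9.52 and 10.8 to 11.6, and neural markers to 583 to 589 and 606 to 608, nearly all of it NES. Trophoblast markers summed to 3.31 to 4.15 CPM in 2-D and 4.09 to 4.35 in 3-D, with CGA and GCM1 at 0 in every library, as was the neural gene NEUROD1, and no endoderm, mesoderm, neural or trophoblast marker was called. The part of proliferation or of fibroblast-like transcripts in the changes of the repair genes was not tested.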

How the data were processed

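RNA-seq was performed by the authors on total RNA of 2-D and 3-D grown Elf1 cells, with ribosomal RNA depleted and 2 libraries per culture. Per the study's methods and the submitters' processing notes, reads were trimmed with Trim Galore (0.6.3), mapped to hg38 with HISAT2 (2.1.0) and assigned to GENCODE genes with featureCounts (1.6.4). Counts were deposited as whole numbers, 1 set per library, without normalization by the authors or pooling of replicates. Strand use and the treatment of multiply mapped or overlapping reads are not given in the sources used here, which leaves genes with overlaps or copies uncertain. A further table, not used here, holds counts normalized with the authors' DESeq2 (2.11.40.6) and the authors' own comparison (mean, fold change, error, statistic, p and adjusted p).

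Here edgeR 4.0.16 (R 4.3.3) was used, with its low-count filter, TMM scaling, a model of condition only and the quasi-likelihood test (legacy mode), and p-values were adjusted over all 22555 tested genes by the Benjamini-Hochberg method. A gene is called when its adjusted p is under 0.05. The standard error is the size of the log2 fold change over the square root of F. Intervals are at 95%. The common biological coefficient of variation was 5.10%. Counts of replicates differed by more than sampling noise (chi-square over degrees of freedom 2.45 in 2-D, 4.39 in 3-D), and none were merged. Symbols of GENCODE release 44 matched 60295 identifiers. Copies of at least 200 bases and 95% identity were found by aligning canonical transcripts with minimap2 2.31-r1302. Promoters are RefSeq windows of GRCh38.p14. Exact motif letters were searched on both strands. The scripts were tested on simulated counts with 200 changed genes. Figures were drawn with matplotlib 3.10.9 under Python 3.11.15, and pandas 2.3.3 handled the tables.

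The 39 genes and all other lists were chosen with earlier results of these data known. Every member is named, and of the other pathway genes the 8 with the smallest p among those called in each direction. Neighbours and copies are named where they touch a member. Each of these was tried as an alternative: DESeq2 1.42.0, the likelihood ratio test of edgeR, scaling by DESeq2 size factors or by library size alone, no low-count filter or a minimum of 10 counts per library, a block for replicate number, offsets for transcript length and GC content from splines (5 degrees of freedom), the block and offsets at once, thinning of the 2-D libraries to the depth of 3-D, and every library left out in turn. A crossed replicate block was added after seeing the data.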

Additional observations from a re-analysis of the deposited data

How the results depend on the processing

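Of the 4 genes called, the main test gave 1 higher and 3 lower. The counts were 0 and 0 with edgeR's likelihood ratio test and with DESeq2, 0 and 11 with library size only, 1 and 7 with the replicate block together with offsets for length and GC content, and 0 and 2 with the 2-D libraries thinned. Leaving out 1 library gave 0 to 1 higher and 0 to 4 lower. Of the other pathway genes, 6 were called higher and 10 lower. Their counts were 3 and 4 with the likelihood ratio test, 2 and 3 with DESeq2, 3 and 20 with library size only, 6 and 17 with the block and offsets, 5 and 5 after thinning, and 4 to 8 and 3 to 12 with 1 library left out. The median of the 39 genes was -0.014. It was -0.079 with library size only, where the median of all genes moved to -0.065, and -0.040 to 0.015 with 1 library left out. The causes were not tested.

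The replicate block alone gave 1 higher and 3 lower members, 6 and 11 other pathway genes, and a median of -0.014 for the members. Whether same-numbered libraries were paired is not stated in the labels or by the study. Their deviations had a correlation of -0.105 over 13142 genes, which cannot settle the pairing. As the correlation is below -0.1, crossed numbers were also tried, with 1 higher and 3 lower members and 7 and 11 other pathway genes.

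In all 22555 tested genes, calls numbered 1024 higher and 758 lower. They were 651 and 488 with the likelihood ratio test and 514 and 1879 with library size only. With the block and offsets they were 1316 and 1364, so lower calls rose in all genes as well as in the members. After thinning they were 819 and 575 of 21306 genes. DESeq2 gave 511 and 284 of the 10229 genes with an adjusted p.

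Estimates that changed sign were all of members that were not called. With library size only they were BRCA1 -0.038, BRCA2 -0.055, BARD1 -0.039, PALB2 -0.0030, NBN -0.039, XRCC3 -0.017, BLM -0.037, MSH3 -0.050, MSH6 -0.042, XRCC5 -0.045, XRCC6 -0.031, LIG4 -0.047, TP53BP1 -0.026, LIG3 -0.019 and PARP1 -0.021. With offsets they were XRCC3 -0.019 and XRCC4 0.0015, and with block and offsets XRCC3 -0.019. After thinning they were BRCA2 -0.00027, RAD50 0.16 and LIG4 -0.016. With 1 library left out, log2 fold changes spanned -0.15 to 0.060 for ATR, -0.053 to 0.023 for CHEK1, -0.018 to 0.070 for BRCA1, -0.026 to 0.048 for BRCA2, -0.0066 to 0.062 for BARD1, -0.12 to 0.11 for RAD50, -0.021 to 0.072 for NBN, -0.060 to 0.0077 for XRCC2, -0.074 to 0.017 for FANCC, -0.074 to 0.012 for FANCM, -0.059 to 0.091 for MSH3, -0.011 to 0.057 for MSH6, -0.10 to 0.061 for PMS2, -0.22 to 0.073 for XRCC4, -0.049 to 0.080 for LIG4 and -0.011 to 0.10 for LIG3.

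With 2 libraries per culture, standard errors of 0.0292 to 0.134 on the log2 scale limit what could be called, and leaving out a library leaves a lone one that is assumed to vary like the other culture. The largest errors were those of RAD50 (0.134) and XRCC4 (0.115), which had the fewest counts. Strand, shared exons, copies and the mitochondrial share limit single genes as stated beside them. DESeq2 gave no adjusted p for 2 members.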

Other observations

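Of the 131 other pathway genes, 3 were not tested. GTF2H4, a subunit of TFIIH, had 0 counts in each of the 4 libraries, and MSH5, a meiotic MutS homolog, had 1 count in all, in 2-D replicate 2. The canonical transcripts of both are wholly copied on alternate contigs of hg38, so a count of 0 is not read as absence of the transcript. NHEJ1, an end joining factor, had 13 and 12 counts in 2-D and 5 in each 3-D library.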
